A study of Mus musculus with 6 samples.

Results

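The miRNAs named miR-297, miR-466, miR-467 and miR-669 form a large group of rodent miRNAs that are rich in short repeats. They were followed here in the hearts of sham-operated and pressure-overloaded mice. Members were chosen by name alone: every row of the mature miRNA table whose name starts with one of these 4 numbers followed by a letter or a hyphen. This gave 80 of 1966 rows: 6 of miR-297, 31 of miR-466, 13 of miR-467 and 30 of miR-669. Hearts came from 6 male wild-type mice, 3 with sham surgery (animals 47, 68 and 69) and 3 with transverse aortic constriction, TAC (animals 29, 78 and 81), all taken 8 weeks after surgery. TAC narrows the aorta and so loads the left ventricle, and sham mice have the operation without the narrowing. Each mouse gave 1 small RNA library of the heart. The sources used here give neither strain nor age.

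A miRNA is cut from a hairpin RNA with a 5p and a 3p arm, and the mature strand guides the silencing complex to mRNAs, mostly through its seed, bases 2 to 8 from the 5′ end. Most hairpins of this group lie in an array of near-identical repeat units inside an intron of Sfmbt2, a Polycomb group gene that is imprinted and expressed from the paternal copy in the early embryo and placenta. The array is best known from placenta, trophoblast and stem cells. Single members have been studied elsewhere: miR-669a was described as holding back skeletal muscle differentiation in cardiac progenitor cells, miR-467b as acting on lipoprotein lipase in macrophages, miR-466l as acting on Il10 mRNA, and miR-669c as higher in the liver of old mice.

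The repeats can be seen in the mature sequences. RefSeq sequences (GRCm38.p6) were matched for 8 of the 80 rows, all of them outside the Sfmbt2 array, and all 8 are shown to make the dinucleotide repeats and the differences in seed visible. They are written 5′ to 3′ with the seed in capitals.
miR-669n: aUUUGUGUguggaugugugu
miR-466i-3p: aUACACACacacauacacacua
miR-466j: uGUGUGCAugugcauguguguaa
miR-466k: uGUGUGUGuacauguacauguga
miR-466q: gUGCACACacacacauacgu
miR-467f: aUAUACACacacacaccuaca
miR-467g: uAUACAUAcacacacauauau
miR-467h: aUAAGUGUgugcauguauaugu
The 8 sequences carried 8 different seeds, so the shared name does not mean a shared seed. A run of 8 bases of UG or CA repeat (UGUGUGUG, GUGUGUGU, ACACACAC or CACACACA, overlapping matches counted once per sequence) was found in 6 of the 8, all but miR-466j and miR-467h. The same runs were found in 7 of the 1667 other rows with a matched sequence (0.420%). Of these 8 miRNAs, miR-669n (chr3:115979905-115979924, plus strand, in an intron of Slc30a7 on the opposite strand) had counts, 1 in sham 47 and 2 in sham 68. The others had 0 in every library.

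The group held few counts in these libraries. How reads with several places were treated was not given, so low counts were not read as low expression. Of 80 rows, 65 had 0 counts in all 6 libraries, 14 had between 1 and 19 counts over the 6 libraries, and 1 row, miR-669c-5p, reached 20. The 80 rows held 107 counts out of 12252859. miR-669c-5p alone held 62.6% of them, and with miR-467e-5p 74.8%. Counts were found in 18.8% of the member rows against 57.5% of the other 1886 rows, and at least 20 counts in 1.25% against 25.1%. A count of 0 in every library still allows a level of up to about 3 counts, a one-sided 95% limit. That is 0.245 CPM (counts per 1e6 counts of the library) over the 6 libraries together, or 0.855 to 2.45 CPM in 1 library. These limits cover counting error only, as do all counting intervals below.

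The libraries themselves carried heart RNA at high level: the 4 heart muscle miRNAs checked (miR-1a-3p, miR-133a-3p, miR-208a-3p and miR-499-5p) summed to between 169129 and 282741 CPM. The 6 checked miRNAs of pluripotent and trophoblast cells (miR-290a-5p, miR-291a-3p, miR-292a-3p, miR-293-3p, miR-294-3p and miR-295-3p) held 1 count, of miR-295-3p in sham 47, and 0 elsewhere. Markers of smooth muscle summed to 38481 to 55963 CPM, of red blood cells to 1073 to 2599 and of leukocytes to 184 to 259, with 1 of 4 leukocyte rows at 0. The 2 endothelial rows and the liver row were at 0 in all libraries. These 3 rows, the leukocyte row at 0 (miR-142a-3p), miR-290a-5p and miR-292a-3p all lie over a row on the opposite strand. Of the 90 rows with such an overlap at every place 8 had counts (8.89%), so their 0s were not read as absence of those miRNAs or cells. Total counts were 1818725 to 3509001 in sham and 1226187 to 1795831 in TAC, so sham hearts were sampled more deeply.

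**Figure D1:**
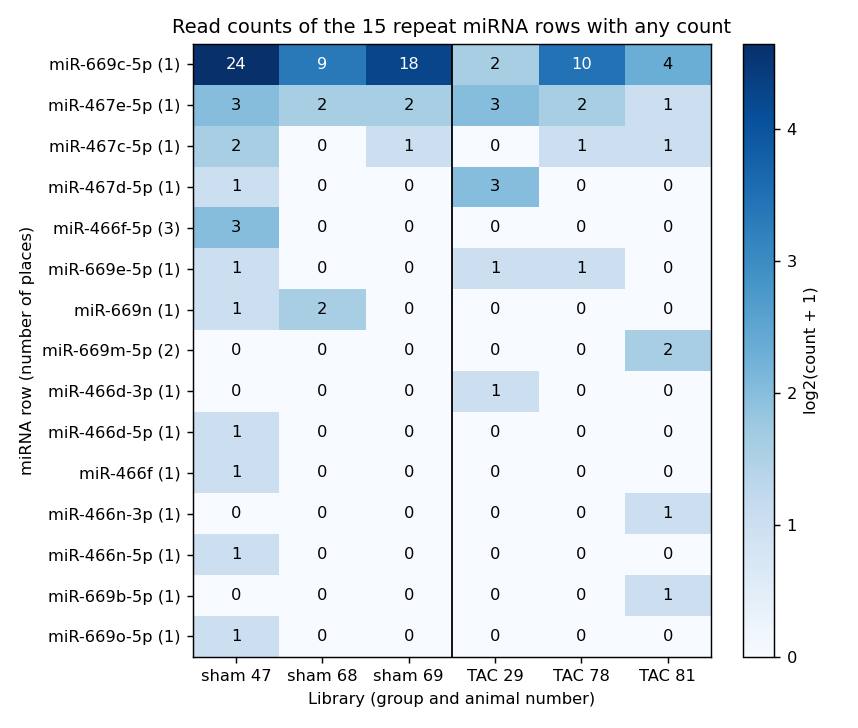
Read counts of the 15 repeat miRNA rows with any count (vertical axis, with the number of places of each row) in each of the 6 libraries (horizontal axis), with colour on a log2(count + 1) scale. miR-669c-5p and miR-467e-5p are the only rows with a count in every library.

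miR-669c-5p lies at chr2:10509319-10509340 on the plus strand (mm10, as in the deposited table), has 1 place, and falls in an intron of Sfmbt2 on the same strand. Sham 47 had 24 counts of it, sham 68 had 9 and sham 69 had 18, while TAC 29 had 2, TAC 78 had 10 and TAC 81 had 4. As CPM of the library total these are, in the same order, 6.84 (exact binomial 95% interval 4.38 to 10.2), 4.95 (2.26 to 9.39) and 7.95 (4.71 to 12.6) in sham. In TAC they are 1.11 (0.135 to 4.02), 6.10 (2.92 to 11.2) and 3.26 (0.889 to 8.35). TAC 29 and TAC 81 were below all sham hearts, but TAC 78 lay above sham 68, so the groups overlapped. The means were 6.58 ± 1.52 CPM in sham and 3.49 ± 2.50 CPM in TAC (SD, n = 3 each), a difference of -3.09 CPM (two-sided exact permutation p = 0.2, where 3 against 3 cannot go below 0.1). In whole tissue, fewer cells of a type and less RNA per cell cannot be told apart.

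The fit over all rows that passed the low-count filter tested 354 rows and called 108 of them (30.5%), 40 of them lower in TAC (11.3%). Of the members, miR-669c-5p was the 1 tested. It was not called, with a log2 fold change of -0.64 ± 0.53 (SE) in TAC relative to sham and an edgeR adjusted p = 0.366. Thus, with 1 of the 80 members tested, 0 were called and 0 had an unadjusted p under 0.05. DESeq2 and limma-voom also tested miR-669c-5p alone of the members and did not call it. The size rested on single TAC hearts: without TAC 78 the log2 fold change was -1.39 (edgeR unadjusted p = 0.0478, adjusted p = 0.139), and without TAC 29 it was -0.14 (edgeR adjusted p = 0.878). Pooled over the mice of a group, 51 counts of 7590732 in sham and 16 of 4662127 in TAC give a TAC to sham ratio of 0.511, with a 95% counting interval of 0.272 to 0.910 that leaves out the spread between mice. The pooled ratio uses library totals, while the main fit scaled the libraries by TMM factors. With library totals in edgeR, which includes that spread, the log2 fold change was -0.94 ± 0.54 (SE, edgeR adjusted p = 0.206), again not called.

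**Figure D2:**
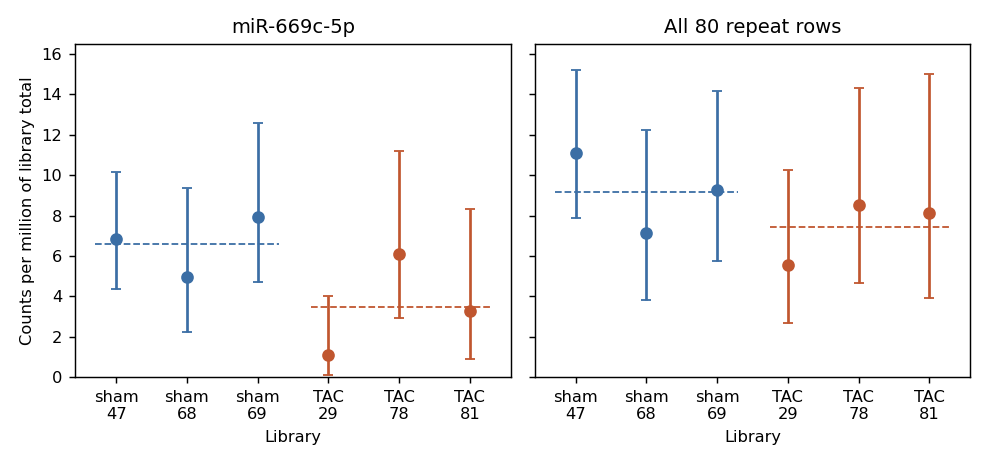
Level of miR-669c-5p (left) and of all 80 repeat rows summed (right) in each library, in CPM of the library total, with exact binomial 95% intervals as bars and group means as dashed lines. TAC 78, at 6.10 CPM of miR-669c-5p, lies among the sham hearts, and the summed levels of the groups overlap.

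**Figure D3:**
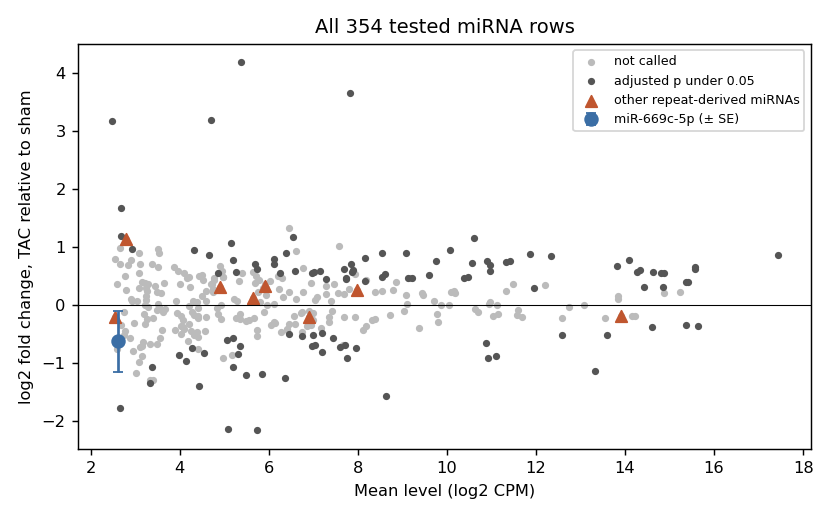
Log2 fold change in TAC relative to sham (vertical axis) against mean level in log2 CPM (horizontal axis) for the 354 tested rows. miR-669c-5p lies near the low end of the tested levels, at -0.64, among rows that were not called.

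The second row, miR-467e-5p (chr2:10505731-10505752), lies 3588 bases upstream of miR-669c-5p in the same intron. It had 3 counts in sham 47, 2 each in sham 68 and sham 69, 3 in TAC 29, 2 in TAC 78 and 1 in TAC 81. As CPM, in that order of animals, the sham values are 0.855, 1.10 and 0.884, against 1.67, 1.22 and 0.816 for TAC. The groups overlapped, and the pooled ratio of TAC to sham was 1.40 with a 95% counting interval of 0.387 to 4.85. This row was too low for the test, and the interval leaves a lower as well as a higher level in TAC possible.

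Below these, miR-467c-5p had 5 counts, with 2 in sham 47 and 1 each in sham 69, TAC 78 and TAC 81. miR-467d-5p, between miR-467e-5p and miR-669c-5p, had 4 counts, 3 of them in TAC 29 and 1 in sham 47. miR-669e-5p had 1 count each in sham 47, TAC 29 and TAC 78. The other rows with counts, apart from miR-669n, were seen in a single library each. Rows with exactly 1 count numbered 7: miR-466d-5p, miR-466n-5p, miR-669o-5p and the chromosome 13 row miR-466f in sham 47, miR-466d-3p in TAC 29, and miR-466n-3p and miR-669b-5p in TAC 81.

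Of the 15 rows with counts, 5 had them in both groups, 6 in sham only and 4 in TAC only. Of those in sham only, 5 were seen in sham 47 alone, the deepest library, and without sham 47 10 rows had counts. The number of member rows with counts was 11 in sham 47, against 3 in sham 68, 3 in sham 69, 5 in TAC 29, 4 in TAC 78 and 6 in TAC 81. Presence in one group and absence in the other therefore rests on 1 to 3 counts in each of these rows and was not read as a difference.

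Summed over all 80 rows, sham 47 had 39 counts, sham 68 13 and sham 69 21, against 10 in TAC 29, 14 in TAC 78 and 10 in TAC 81. As CPM, in that order, the sham values are 11.1, 7.15 and 9.28 and the TAC values 5.57, 8.54 and 8.16, with means of 9.18 ± 1.99 and 7.42 ± 1.61 CPM (SD, n = 3 each). TAC 78 and TAC 81 lay above sham 68, and every library's 95% interval overlapped every other's. Without miR-669c-5p the remaining 79 rows stood at 2.60 ± 1.51 CPM in sham and 3.93 ± 1.31 CPM in TAC, and their pooled ratio of TAC to sham was 1.33 with a 95% counting interval of 0.673 to 2.60.

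The counts came almost wholly from the 5p arm. The 33 rows named 5p held 101 of the 107 counts (94.4%), the 35 rows named 3p held 2, and the 12 rows without an arm in the name held 4. Counts were present in 11 of 33 rows of the 5p arm (33.3%) and in 2 of 35 of the 3p arm (5.71%). Among all other rows of the table the arms were closer, with counts in 458 of 785 5p rows (58.3%) and 500 of 794 3p rows (63.0%), and 44.9% of counts in 5p rows. Of the 33 hairpins with both arms in the table, 11 had counts in at least 1 arm: 9 in the 5p arm alone, 0 in the 3p arm alone and 2 (miR-466d and miR-466n) with 1 count in each arm. miR-669c-3p, 40 bases downstream of miR-669c-5p, had 0 counts against 67. Most of the 5p excess is that 1 row, and 9 of the hairpins had 5 counts or fewer.

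The member rows name 150 places in the genome, of which 139, from 70 rows, lie on the plus strand of chromosome 2 between 10466677 and 10518240. These 51.6 kb fall within introns of Sfmbt2, on its strand. The other 11 places are spread over chromosomes 3, 5, 7, 9, 10, 11 and 13. They lie in introns of Slc30a7, Tnik, Gm37240, Grk4, Fxr2 and Cdk13 or outside annotated genes, and the Tnik place, of miR-466q, is the one on the strand of its host gene. Counts were found in 13 of the 70 rows with a place in the array and in 2 of the 10 rows without one.

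The array repeats with a regular step. Places of miR-669a-5p recur with a median spacing of 2457 bases, those of miR-467a-5p with 2462 and those of miR-466b-5p with 2468. Within a unit, miR-466b-5p follows miR-467a-5p by a median of 287.0 bases, and miR-669a-5p follows miR-466b-5p by a median of 232.0 bases. Each of these rows has 8 to 12 places and 0 counts.

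Places with counts lay on both sides of a long stretch without them. The outermost rows, both arms of miR-466m upstream and miR-466g to miR-669h downstream, had 0 counts. The longest stretch between places with counts, 31.8 kb from miR-467c-5p to miR-467e-5p, holds 77 places of 20 rows, 10 of which have 1 place. It is free of counts because it was picked that way. Rows with several places own 87.0% of the places in it, against 37.5% of those upstream and 26.3% of those downstream. Upstream of it, 4 of 19 rows had 12 counts in all, with miR-466f-5p, miR-669e-5p, miR-669b-5p and miR-467c-5p. Downstream of it, 9 of 34 rows had 91 counts, 67 of them in miR-669c-5p. Among rows with 1 place, counts were found in 3 of 15 upstream, 0 of 10 in the stretch and 8 of 28 downstream.

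**Figure D4:**
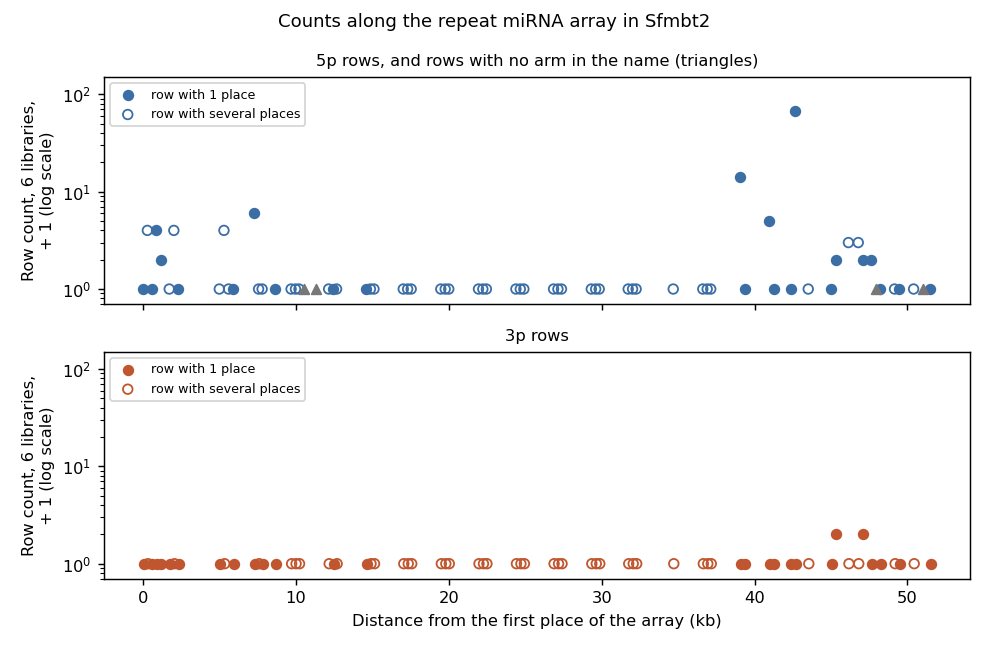
Counts of each row over the 6 libraries, plus 1, on a log axis, at each of its places along the array, given as the distance in kb from the first place, for 5p rows (top) and 3p rows (bottom). Filled circles are rows with 1 place and open ones rows with several, which are drawn at every place, and the 67 counts of miR-669c-5p stand toward its downstream end.

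How many places a row has bears on what its count can mean. Of the 80 rows, 63 have 1 place, 6 have 2, 4 have 3, 1 has 4 (miR-297a-5p), 2 have 8 (both arms of miR-466b), 2 have 10 (both arms of miR-467a), 1 has 11 (miR-669a-3p) and 1 has 12 (miR-669a-5p). Rows with several places make up 21.3% of the members and 3.45% of the other rows. All 7 rows with 4 or more places had 0 counts, and they are the only rows of the table with so many places, so the table offers no other row in which to see whether reads with that many places were counted. The sources used here do not say how such reads were treated, and a 0 in these 7 rows was not read as absence.

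Among rows with fewer places, counts were found in 13 of 63 members with 1 place (20.6%), 1 of 6 with 2 places and 1 of 4 with 3 places. The other rows had counts in 1044 of 1821 (57.3%), 38 of 56 (67.9%) and 3 of 9 (33.3%). The low share of rows with counts was therefore also seen among members with 1 place. No member place overlaps another row of the table on either strand. Whether reads of these 1-place members also match other members was not tested, since mature sequences were not used for the rows of the array.

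The 2 rows with several places and counts are miR-466f-5p, with 3 places and 3 counts in sham 47, and miR-669m-5p, with 2 places and 2 counts in TAC 81. Each value equals the number of places. Over the whole table, 130 of 186 values above 0 in rows with 2 places (69.9%) and 7 of 9 in rows with 3 places were whole multiples of the number of places. Rows with 2 places differed. All 6 values were multiples in let-7f-5p, miR-19b-3p, miR-365-3p, miR-450a-5p and miR-7a-5p. Only 2 of 6 were in let-7c-5p, miR-133a-5p, miR-194-5p, miR-199a-3p, miR-218-5p and miR-26a-5p. How such reads were counted was not tested, so the number of reads behind the values of miR-466f-5p and miR-669m-5p is not known.

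**Figure D5:**
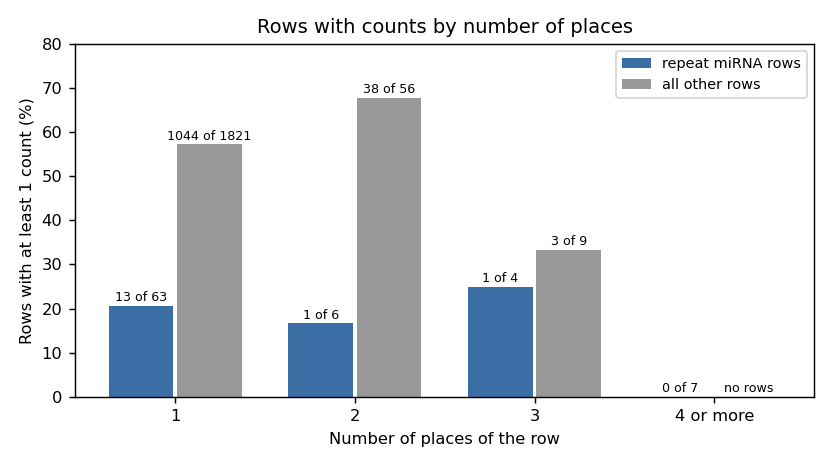
Share of rows with at least 1 count over the 6 libraries (vertical axis, percent) by number of places (horizontal axis), for the 80 repeat miRNA rows and the 1886 other rows, with numbers of rows above the bars. Members with 1 place had counts in 13 of 63 rows, against 1044 of 1821 other rows.

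By family, miR-297, known from the same array, had 0 counts in all 6 rows. The miR-466 rows, the largest family, held 8 counts in 6 of 31 rows, with at most 3 in a row. The miR-467 rows held 22 counts in 3 of 13 rows, all of the 5p arm (miR-467c, miR-467d and miR-467e). The miR-669 rows held 77 counts in 6 of 30 rows, 67 of them in miR-669c-5p. Of members with described roles, miR-669a (both arms), miR-467b (both arms) and miR-466l (both arms) had 0 counts in every library, of which miR-669a has 11 and 12 places and the others 1 place each.

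Outside the group, 7 rows carried a run of 8 bases of UG or CA repeat. They held 44 counts, and 5 of them had any (71.4%), against 57.5% of all rows that are not members. The 3 with the most counts are shown with their seeds in capitals, to set their repeats beside those of the members.
miR-672-5p: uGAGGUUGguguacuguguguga
miR-32-3p: cAAUUUAGugugugugauauu
miR-3097-5p: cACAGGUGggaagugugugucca
miR-672-5p had 11 counts in sham 47, 5 in sham 68 and 6 in sham 69, against 3 in TAC 29, 3 in TAC 78 and 1 in TAC 81, or 2.85 ± 0.26 and 1.44 ± 0.55 CPM (SD, n = 3 each). It was too low for the main test. When rows with at least 20 counts were kept, its log2 fold change was -0.68 ± 0.52 (edgeR adjusted p = 0.394). miR-32-3p had 5, 3 and 2 counts in sham and is listed at 0 in the 3 TAC libraries. Without a low-count filter its log2 fold change was -4.44 ± 1.88 (edgeR unadjusted p = 0.0180, adjusted p = 0.132), so it was not called. miR-3097-5p had 3 counts in all.

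Of 20 rows derived from other, interspersed repeats, 13 had counts (65.0%, against 57.5% of all rows that are not members). miR-151-3p held 200713 of their 207183 counts, and the median row had 1.5. Both arms of miR-374b and of miR-374c were at 0 and lie over a row on the opposite strand. Their 0s, which lower this share and median, were not read as absence. Of the 20, 8 were tested, with a median log2 fold change of 0.18 against 0.07 over all 354 tested rows, and 0 were called by edgeR, with 1 at an unadjusted p under 0.05 (DESeq2 and limma-voom gave 0 calls). miR-151-3p, from a LINE-2 repeat, was at 16373 ± 1090 TMM-scaled CPM in sham and 14295 ± 1827 in TAC, with a log2 fold change of -0.20 ± 0.11 (edgeR adjusted p = 0.197). miR-340-5p was at 229 ± 14.2 and 273 ± 15.6, with 0.25 ± 0.12 (edgeR adjusted p = 0.146). miR-28a-3p was at 128 ± 13.2 and 109 ± 12.8, with -0.22 ± 0.16 (edgeR adjusted p = 0.297). The row with the low unadjusted p was miR-708-3p, at 3.89 ± 1.10 and 8.60 ± 5.63, with 1.13 ± 0.49 (edgeR unadjusted p = 0.0486, adjusted p = 0.111). miR-669c-5p, on the same scale, was at 5.90 ± 1.28 and 3.90 ± 2.76 CPM (SD, n = 3 each).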

How the data were processed

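The measurements are read counts in whole numbers, 1 row per mature miRNA and 1 column per mouse, as the authors deposited them. Columns were matched to mice by the animal number in the titles, and 0 columns were left over. Per the submitters' processing notes, mm10 was the build, and HISAT2, StringTie and DESeq2 were among the tools, without roles or versions. The counter, trimming, strand setting and treatment of reads with several places were not given in the sources used here. Counts of near-identical rows can share reads.

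Of all 1966 rows, filterByExpr kept 354. These were fitted with edgeR 4.0.16 in R 4.3.3 (TMM factors, quasi-likelihood test of TAC against sham without covariates, Benjamini-Hochberg adjustment, threshold 0.05). The fit was also run on data simulated with a common dispersion, which did not measure power for rows as low as miR-669c-5p. Each edgeR SE was back-calculated as the absolute log2 fold change divided by the square root of the F statistic. CPM are of library totals unless called TMM-scaled. Intervals are exact and two-sided (Clopper-Pearson, scipy 1.17.1), at 95%. Alternatives were DESeq2 1.42.0, limma-voom (limma 3.58.1), 4 other scalings, 2 other low-count filters, counts divided by places, 1 row per shared sequence or identical counts, and leaving out each mouse. Annotation is from GENCODE M21 and sequences from RefSeq, both on GRCm38, the assembly of mm10.

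Members with at least 20 counts were described singly and, of 2 other lists, called rows and the 3 most abundant; members under 20 named singly, the stretch without counts and any further row of those lists were chosen after their values were seen. The members and lists were chosen with earlier results of these data known.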

Additional observations from a re-analysis of the deposited data

How the results depend on the processing

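With 107 counts over 80 rows, depth limits every statement on the group: a change could be tested for miR-669c-5p alone under filterByExpr and for 15 rows without a filter. In all 16 alternatives 0 members were called, and miR-669c-5p stayed lower in TAC without being called. Its log2 fold change lay between -1.39 and -0.14 when mice were left out in turn and between -0.94 and -0.63 in the other 10 alternatives, with edgeR, DESeq2 or limma-voom adjusted p from 0.139 to 0.878. The median of all tested rows was -0.23 with library totals and -0.14 without the 5 most abundant miRNAs, against 0.07 with TMM. The summed level of the 80 rows differed by -1.76 CPM (TAC minus sham) and by -2.78 to -0.79 CPM when mice were left out. Of the other repeat-derived miRNAs, against 0 called in the main analysis, 2 were called with library totals (miR-151-3p and miR-28a-3p) and 1, miR-151-3p, in each of 2 others (no low-count filter, and totals that leave out the 5 most abundant). The cause was not tested. No paired analysis was possible because the animal numbers are not shared between the groups.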
